A study of Mus musculus with 24 samples.

Results

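Dorsal root ganglia (DRGs) hold the cell bodies of the sensory neurons that send one axon branch into the peripheral nerve and another into the spinal cord. A large share of the small neurons among them, the nociceptors, make neuropeptides, which are cut out of longer precursors, packed into dense core vesicles and released at both ends of the axon. The 7 genes described here encode such precursors and comprise every gene name among *Tac1*, *Calca*, *Calcb*, *Sst*, *Nppb*, *Penk* and *Pdyn* on the array, that is 12 of 41174 probes and 7 of 27398 gene names. *Tac1* gives substance P and neurokinin A, *Calca* and *Calcb* give alpha and beta calcitonin gene-related peptide (CGRP), *Sst* gives somatostatin, *Nppb* gives B-type natriuretic peptide, and *Penk* and *Pdyn* give the opioid enkephalins and dynorphins. Probes were assigned to them by the gene name on the array alone.

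RNA was measured in 24 samples of L4 and L5 DRGs from adult male C57BL/6J mice, in 6 groups of 4. WT mice were Nfil3+/+ littermates of the Nfil3-/- (KO) mice, which lack *Nfil3*, encoding a transcriptional repressor, in every cell because a floxed allele had been deleted by Cre under a CMV promoter and passed through the germline. In all mice the left sciatic nerve was cut and its ends sutured together. DRGs of the injured side were taken at day 2 or day 5 post-lesion. Per the study's methods control DRGs came from the non-injured side, which leaves no sample from an unoperated animal. The titles of the controls read Day0, and whether controls shared mice with lesion samples is not stated. All mice received Hypnorm (fentanyl and fluanisone) and Dormicum for surgery, and buprenorphine (Temgesic) once per day for the first days after it. Fentanyl and buprenorphine are opioids. The buprenorphine dosing ended between day 2 and day 5, so its effect and that of the day cannot be told apart. One sample carries conflicting labels, since its title gives KO control replicate 4 and another field gives day 5, and it was kept as KO control. The labels name DRG neurons, but whole ganglia were dissected, and all 10 macrophage and all 6 Schwann cell markers looked up were well above background in all 24 samples, as were all 15 pan-neuronal markers.

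The arrays were Agilent 4x44K arrays with a different sample in each color channel, 2 samples per group in Cy3 and 2 in Cy5, on 12 arrays of 3 slides. Between 54.5% and 72.3% of probes were well above background in a sample, and 0 spots were saturated. *Nfil3* itself was at 8.44 to 11.08 (log2 intensity) in the 12 WT samples and at 2.82 to 7.59 in the 12 KO samples, with the sample labelled KO control replicate 4 highest among the latter and the other 11 at or below 6.22. All values below are log2 intensities after background correction and quantile normalization, so that a difference of -1 is a 2-fold lower signal, and they compare samples for the same probe but not one gene with another. Each difference was tested with limma, and p-values were adjusted (Benjamini-Hochberg) over all 41174 probes with 0.05 as threshold.

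Several of these genes are textbook targets of cyclic AMP signalling, and the cyclic AMP response element was described in the somatostatin promoter. NFIL3 can bind similar letters, which is why the promoters are shown here. In the RefSeq promoter windows (GRCm38.p6, 250 bases before to 50 after each start), 5 of the 7 genes had an entry, and the search was for the full element TGACGTCA and its core, TGACG or CGTCA, the latter pair covering both strands. The full element occurred in *Sst* only among these 5, and the core in *Tac1* (2), *Calca* (1) and *Sst* (2, both inside the full element). Stretches of 60 bases around them read as follows, 5′ to 3′ on the gene's strand, with the site in capitals:
Tac1, chr6:7554837-7554896, + strand: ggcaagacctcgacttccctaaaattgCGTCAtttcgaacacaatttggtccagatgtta
Tac1, chr6:7554991-7555050, + strand: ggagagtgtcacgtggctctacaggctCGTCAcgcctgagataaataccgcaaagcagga
Calca, chr7:114636390-114636449, - strand: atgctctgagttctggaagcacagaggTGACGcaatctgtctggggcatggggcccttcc
Sst, chr16:23890859-23890918, - strand: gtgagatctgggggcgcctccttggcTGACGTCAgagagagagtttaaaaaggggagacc

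The full element was present in 1.79% of all 32851 promoter windows and the core in 20.8%. The first capital lay 197 and 43 bases before the start in *Tac1*, 65 in *Calca* and 48 in *Sst*. Neither site was found in the window of *Nppb* or in either window of *Pdyn*. The NFIL3 palindrome TTACGTAA and its variant TTATGTAA, held by 0.119% and 0.938% of all windows, were in none of the windows of the 5 genes. A match is a match of letters only, and binding was not measured.

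The probes differ in which part of a precursor they read. The brightest *Tac1* probe, A_51_P216456, lies in the coding sequence and spans an intron (mm9 chr6:7507722-7509136, + strand). It reads the stretch that encodes neurokinin A, and the capitals mark the codons of the shared tachykinin ending up to its last residue:
Tac1 probe: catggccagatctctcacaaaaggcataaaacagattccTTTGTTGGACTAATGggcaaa
The dimmer *Penk* probe, A_52_P286166 (mm9 chr4:4061458-4061517, - strand), reads a coding stretch with 2 copies of the opioid core, marked in capitals:
Penk probe: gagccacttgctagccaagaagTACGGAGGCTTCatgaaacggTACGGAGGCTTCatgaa
These 2 probes are shown because their letters alone tell which stretch of the precursor they read. Each measures RNA that holds this stretch and not a peptide, and *Tac1* RNA also encodes substance P. *Calca* is read by one probe per splice form. A_52_P154101 (mm9 chr7:121775204-121775263) belongs to transcript variant 2, which encodes CGRP, and A_51_P290826 (chr7:121776832-121776891) to variant 1, which encodes calcitonin. The *Calcb* probe A_51_P406157 lies at mm9 chr7:121866534-121866593, the *Sst* probe A_51_P262489, spotted 10 times per array, at chr16:23889776-23889835, and the *Pdyn* probe A_52_P586928 at chr2:129512323-129512382. The *Nppb* probes are A_51_P426195 (chr4:147360489-147360548), the brighter, and A_52_P559955 (chr4:147360064-147360123), and the brighter *Penk* probe is A_51_P102987 (chr4:4060735-4060794). Of the 12 probes, 10 were well above background in all 24 samples. The other 2, both assigned to *Tac1* through a testis cDNA, were above it in 6 and 4 samples, so they hold little information on these ganglia.

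The precursors of the classical nociceptor transmitters were lower after the lesion. At day 5, *Tac1*, *Calca*, *Calcb* and *Sst* were lower by 0.68 to 1.18 on the log2 scale on average over both genotypes, and for each of the 4 genes all 8 lesion samples lay below all 8 controls. Of the 7 genes, 4 passed the threshold for lower signal, against 13% of all genes, and 0 for higher signal, against 10.2%. Ranges that did not overlap in this direction occurred in 6.26% of all genes. At day 2, 3 of the 7 were lower (*Tac1*, *Calcb* and *Sst*), against 12.9% of all genes, and 1 was higher (*Nppb*), against 9.39%. *Penk* and *Pdyn* did not pass in either averaged comparison. The 7 genes and the lists below were chosen with earlier results of these data known, so these shares are descriptions only. In bulk tissue a smaller number of cells of one type and less RNA per cell cannot be told apart.

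**Figure D1:**
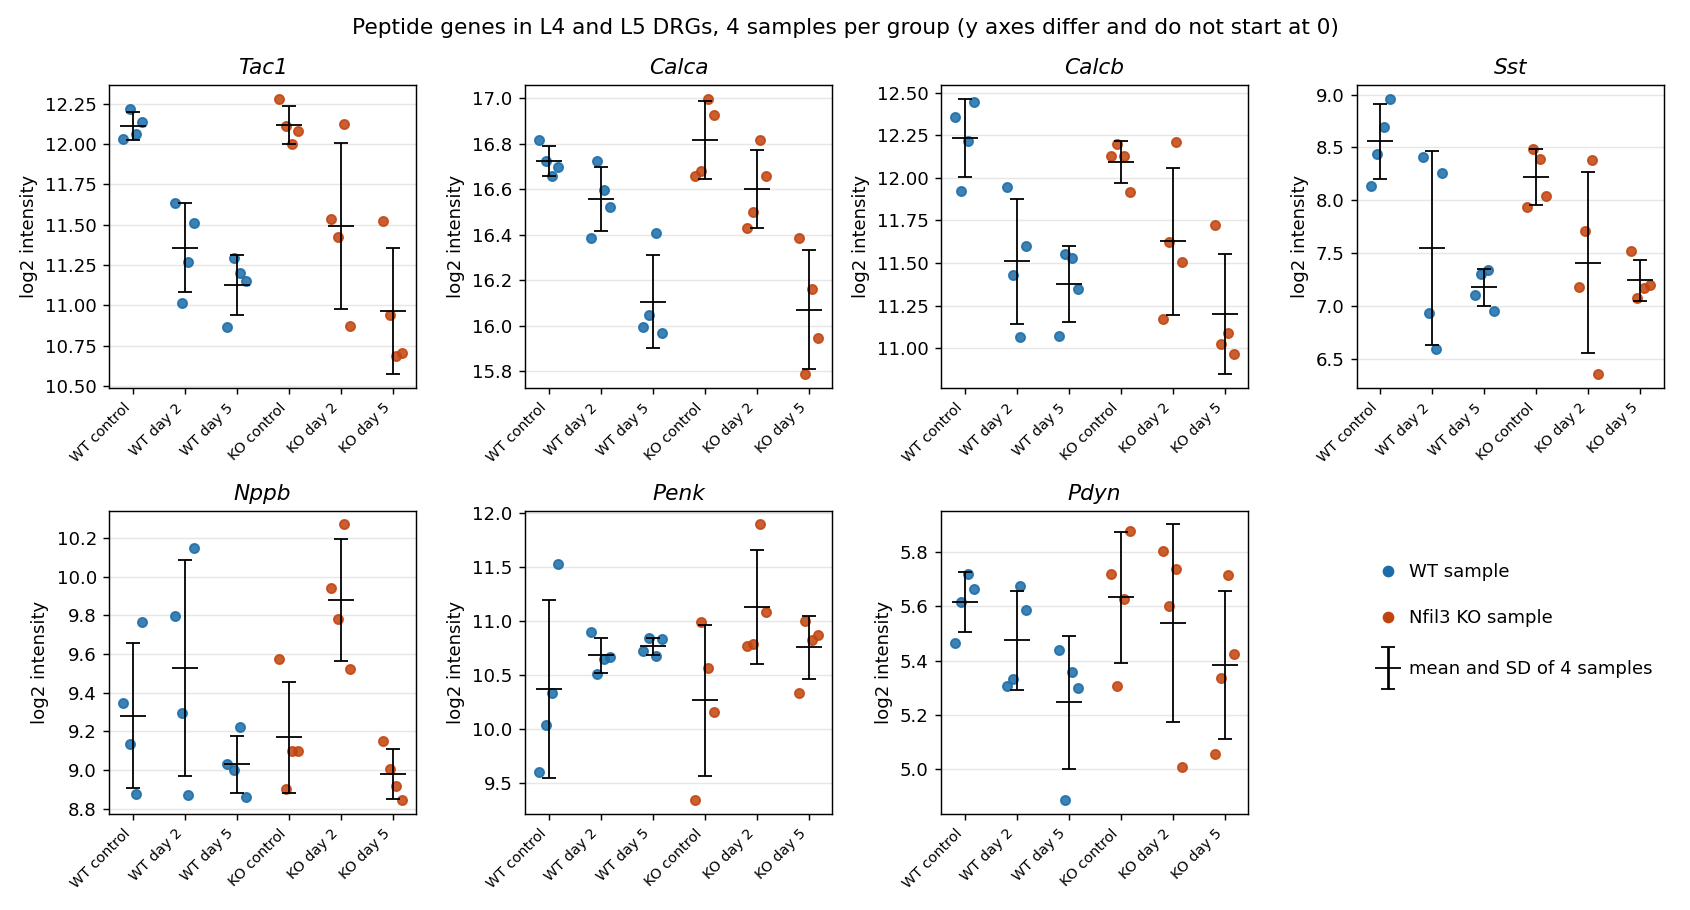
Log2 intensity of the brightest probe of each of the 7 peptide genes in every sample. Points are samples (4 per group, WT blue, KO orange), bars the mean and SD, and the y axes differ between genes. In *Tac1*, *Calca*, *Calcb* and *Sst* every day 5 sample lies below every control, while *Sst* at day 2 spreads from 6.35 to 8.41 and *Penk* controls spread from 9.35 to 11.53.

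*Tac1*, the substance P precursor, was the tightest in control DRGs. WT controls were at 12.03, 12.06, 12.14 and 12.22, and KO controls at 12.002, 12.08, 12.12 and 12.28. The controls of both genotypes thus lay close together.
At day 2 the WT samples were at 11.01, 11.27, 11.51 and 11.64, and the KO samples at 10.88, 11.43, 11.54 and 12.13. All WT samples were below their controls, and 1 KO sample lay within the control range. At day 5 the values were 10.87, 11.15, 11.20 and 11.29 in WT and 10.68, 10.71, 10.94 and 11.52 in KO, all below every control. In the average of both genotypes *Tac1* was lower by -0.69 ± 0.15 (SE) at day 2 (adjusted p = 0.0019) and by -1.07 ± 0.15 at day 5 (adjusted p = 1.75e-05), a 2.10-fold lower signal. The order of the levels was control, day 2, day 5, but the last step, -0.38 (95% confidence interval -0.69 to -0.07), did not pass (adjusted p = 0.206). In WT alone the difference passed at both times (-0.75, adjusted p = 0.0249, and -0.99, adjusted p = 0.00295), and in KO at day 5 (-1.16, adjusted p = 8.23e-04) but not at day 2 (-0.63, adjusted p = 0.0605). The WT call at day 2 was also lost on leaving out any of 5 samples, namely control replicates 2, 3 and 4 and day 2 replicates 2 and 3. Averaging the 2 dim probes into the gene ended each of these calls, with a difference of -0.42 at day 2 and -0.56 at day 5 over both genotypes.

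The calcitonin genes lie close to each other on chromosome 7. Both were lower at day 5, and *Calca* did not pass at day 2. *Calca* WT controls were at 16.66, 16.70, 16.72 and 16.82 and KO controls at 16.66, 16.68, 16.93 and 16.999. WT samples at day 2 were at 16.39, 16.52, 16.60 and 16.72, and KO samples at 16.43, 16.50, 16.66 and 16.82, overlapping the controls in both genotypes. At day 5 they were at 15.97, 15.99, 16.05 and 16.41 in WT and 15.79, 15.95, 16.16 and 16.39 in KO. All of the latter were below all controls. The average difference was -0.19 at day 2 (95% confidence interval -0.38 to 0.003, adjusted p = 0.165), -0.68 ± 0.09 at day 5 (adjusted p = 1.38e-05, 1.61-fold lower), and -0.49 ± 0.09 from day 2 to day 5 (adjusted p = 0.00385). Only 2 of the 7 genes passed in this comparison between the post-lesion days, *Calca* and *Nppb*, both lower at day 5, against 1.01% of all genes. *Calca* passed at day 5 in WT (-0.62, adjusted p = 0.00281) and in KO (-0.75, adjusted p = 6.05e-04). These calls held in all 14 alternative settings and with each of the 24 samples left out.

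The *Calca* probe of the calcitonin form, a splice form better known from thyroid C cells, was well above background in all samples and moved in the same direction. Controls were at 5.58 to 6.22, day 2 samples at 5.44 to 6.25 and day 5 samples at 5.14 to 5.77. Its average difference was -0.02 at day 2 (adjusted p = 0.932) and -0.50 at day 5 (adjusted p = 0.00575), and -0.48 between the post-lesion days (adjusted p = 0.0428). Whether the splice ratio changed was not tested, since probe levels cannot be set against each other.

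*Calcb*, the beta CGRP precursor, was at 11.93, 12.21, 12.36 and 12.45 in WT controls and at 11.91, 12.13, 12.13 and 12.20 in KO controls. Day 2 samples were at 11.07, 11.43, 11.60 and 11.95 in WT and at 11.17, 11.50, 11.62 and 12.21 in KO, with 1 WT sample within and 1 KO sample just above the range of its controls. The day 5 samples, at 11.07, 11.35, 11.53 and 11.55 in WT and at 10.97, 11.03, 11.09 and 11.72 in KO, were all below the lowest control. The average differences were -0.59 ± 0.15 at day 2 (adjusted p = 0.00675) and -0.88 ± 0.15 at day 5 (adjusted p = 1.87e-04, 1.83-fold lower). *Calcb* passed in WT at day 2 (-0.72, adjusted p = 0.0335) and in both genotypes at day 5 (-0.86 in WT, adjusted p = 0.00916, and -0.89 in KO, adjusted p = 0.00795). In KO at day 2 the difference was -0.47 (adjusted p = 0.186). The WT call at day 2 was lost with the replicate number as a block and in 5 of the 24 fits that left out 1 sample (-0.87 to -0.58 over all 24), namely WT control replicates 1, 3 and 4 and WT day 2 replicates 2 and 3.

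*Sst*, the precursor of the inhibitory peptide somatostatin, had the widest spread at day 2. Controls were at 8.13, 8.44, 8.69 and 8.96 in WT and at 7.94, 8.04, 8.39 and 8.49 in KO. At day 5 the samples had closed up to 6.95, 7.11, 7.30 and 7.33 in WT and 7.08, 7.17, 7.20 and 7.52 in KO, below all controls.
Day 2 samples were at 6.59, 6.93, 8.26 and 8.41 in WT and at 6.35, 7.18, 7.71 and 8.38 in KO, so that some were among the controls and others below every day 5 sample. The 10 spots of the probe lay close together within a sample (SD 0.0876 to 0.251, median 0.198), which covers spot noise within an array but not differences between arrays, labellings or hybridizations. The average differences were -0.91 ± 0.27 at day 2 (adjusted p = 0.0184) and -1.18 ± 0.27 at day 5 (adjusted p = 0.00251, 2.26-fold lower). Fitted by genotype, *Sst* passed in WT at day 5 (-1.38, adjusted p = 0.0179) but not in KO (-0.98, 95% confidence interval -1.77 to -0.18, adjusted p = 0.111), nor at day 2 (-1.01, adjusted p = 0.104, in WT and -0.81, adjusted p = 0.198, in KO). The average day 2 call ended with array as a random block (-0.72, adjusted p = 0.0638, with a correlation of 0.262 within arrays).

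The day 2 values of *Sst* and *Calcb* differed with the layout of the arrays. Each array carried 2 samples, and the 4 day 2 samples that shared an array with another day 2 sample had *Sst* at 6.35 to 7.18, whereas the 4 that shared it with a sample of another time point had 7.71 to 8.41. *Calcb* split in the same way (11.07 to 11.50 against 11.60 to 12.21), while *Tac1* (10.88 to 11.54 against 11.43 to 12.13) and *Nppb* (8.87 to 9.94 against 9.78 to 10.27) overlapped. Among controls and at day 5 the ranges of *Sst* overlapped between such samples. With the partner as a covariate, an alternative chosen after seeing the data, the average day 2 calls of *Tac1*, *Calcb*, *Sst* and *Nppb* all passed, *Sst* with an adjusted p of 0.0126. Both kinds of partner were equally frequent in every group, so the covariate could change the error of a difference but not the difference. It also fits a single shift for all time points, so it cannot decide on a split seen at day 2 only. The part of the layout in the spread at day 2 was not tested further.

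**Figure D2:**
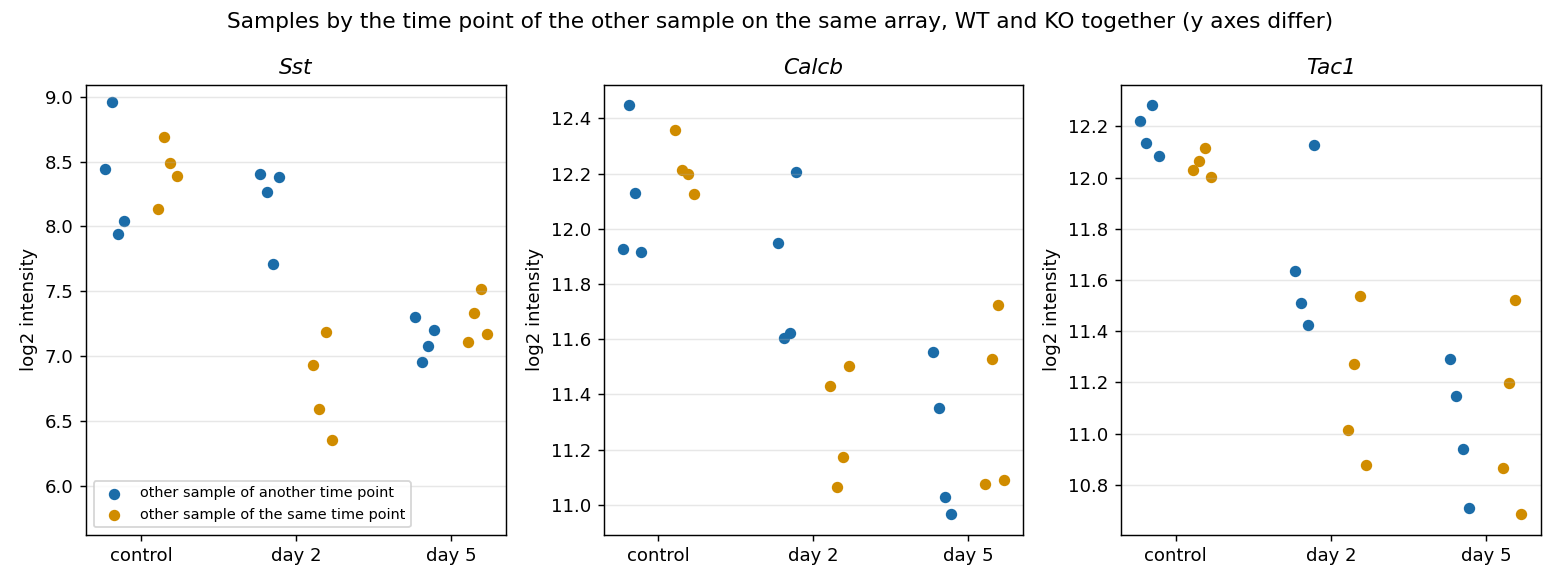
Log2 intensity of *Sst*, *Calcb* and *Tac1* by time point, WT and KO together, split by whether the other sample on the array was of the same time point (yellow, 4 samples) or of another (blue, 4 samples). At day 2 the yellow *Sst* samples lie between 6.35 and 7.18 and the blue ones between 7.71 and 8.41, while controls and day 5 samples overlap.

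*Nppb*, a transmitter of itch-signalling sensory neurons, moved up and back. Controls were at 8.88, 9.14, 9.35 and 9.76 in WT and at 8.90, 9.10, 9.10 and 9.58 in KO. At day 2 WT samples were at 8.87, 9.29, 9.80 and 10.15, spanning the control range, and KO samples at 9.52, 9.78, 9.94 and 10.27, of which 3 were above their controls. Day 5 samples were at 8.86, 8.999, 9.03 and 9.22 in WT and at 8.84, 8.92, 9.01 and 9.15 in KO, at the lower end of the control values. The average difference was 0.48 ± 0.16 at day 2 (adjusted p = 0.0429, 1.39-fold higher), -0.22 at day 5 (95% confidence interval -0.56 to 0.12, adjusted p = 0.419) and -0.70 ± 0.16 between day 2 and day 5 (adjusted p = 0.0211).

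The second *Nppb* probe gave nearly the same differences (0.50, adjusted p = 0.0296, then -0.23, adjusted p = 0.378, and -0.72, adjusted p = 0.0128, between the days). Neither genotype alone passed at day 2 (0.25, adjusted p = 0.611, in WT and 0.71, adjusted p = 0.0551, in KO). The average day 2 call stood close to the threshold, and it remained in 9 of the 24 fits that each left out 1 sample, with differences of 0.38 to 0.59. The fall from day 2 to day 5 remained in 23 of 24, and was lost without WT day 2 replicate 1. Within slides, day 2 was higher than control in 5 of 5 combinations of slide and genotype, by 0.23 to 0.93.

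The opioid precursors did not pass in any lesion comparison as fitted here, although each did so in some of the other fits. *Penk* controls were scattered, at 9.61, 10.04, 10.33 and 11.53 in WT and at 9.35, 10.16, 10.57 and 10.996 in KO. Lesion samples were at 10.51, 10.65, 10.67 and 10.91 (WT day 2), 10.68, 10.72, 10.83 and 10.84 (WT day 5), 10.77, 10.79, 11.08 and 11.90 (KO day 2), and 10.34, 10.82, 10.88 and 11.003 (KO day 5). WT controls thus lay on both sides of all WT lesion samples.
The average difference was 0.59 at day 2 (95% confidence interval 0.07 to 1.10, adjusted p = 0.103) and 0.44 at day 5 (-0.07 to 0.96, adjusted p = 0.248). The dimmer probe, with 2 opioid cores, differed by 0.45 (adjusted p = 0.135) and 0.42 (adjusted p = 0.163). Without WT control replicate 4, the sample at 11.53, both differences passed, at 0.78 (adjusted p = 0.0114) and 0.63 (adjusted p = 0.0355), and without KO control replicate 2 the first did, at 0.71 (adjusted p = 0.0470).

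*Pdyn*, the dynorphin precursor, ran from 5.46 to 5.72 in WT controls and from 5.31 to 5.88 in KO controls. It was at 5.31 to 5.68 (WT) and 5.01 to 5.80 (KO) at day 2, and at 4.89, 5.30, 5.36 and 5.44 (WT) and 5.05, 5.34, 5.43 and 5.71 (KO) at day 5. The 4 WT samples at day 5 were all below the WT controls, as in 11.1% of all genes, but KO samples overlapped theirs. The average difference was -0.12 at day 2 (adjusted p = 0.578) and -0.31 at day 5 (95% confidence interval -0.57 to -0.05, adjusted p = 0.0836). The latter passed with slide as a block (-0.34, adjusted p = 0.0215), and without KO control replicate 2 (-0.36), KO day 2 replicate 4 (-0.31) or KO day 5 replicate 3 (-0.37).

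**Figure D3:**
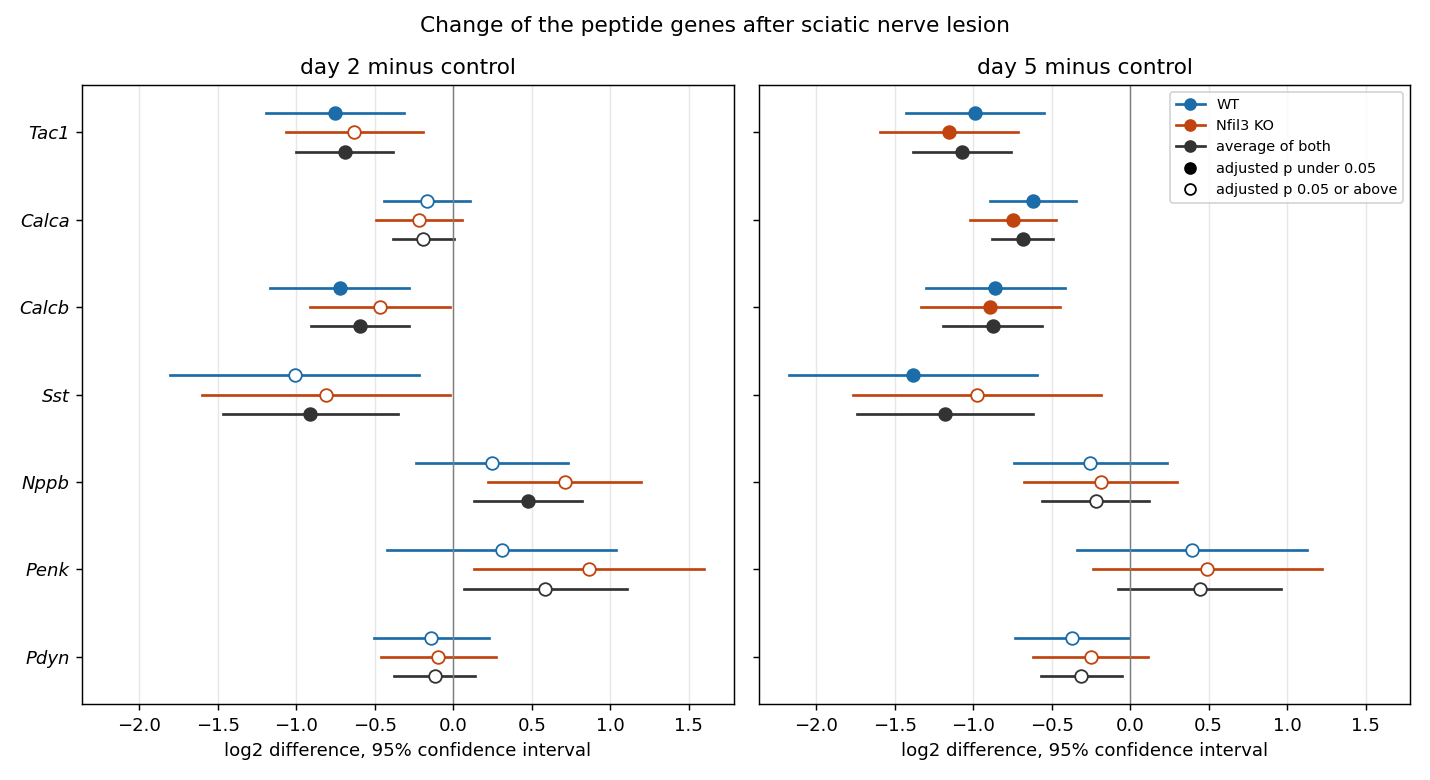
Log2 difference from control at day 2 (left) and day 5 (right) of the 7 peptide genes, with 95% confidence intervals from limma, for WT (blue), KO (orange) and their average (black); filled points have an adjusted p under 0.05. At day 5 the averages of *Tac1*, *Calca*, *Calcb* and *Sst* lie between -0.68 and -1.18, and those of *Nppb*, *Penk* and *Pdyn* have open points.

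By genotype, 2 of the 7 genes passed in WT at day 2 (11.2% of all genes did), 4 in WT at day 5 (13.9%), 0 in KO at day 2 (11.9%) and 3 in KO at day 5 (12.8%). The 0 in KO at day 2 came from limma with adjusted p-values, where the unadjusted p was under 0.05 for 5 genes (*Tac1*, *Calcb* and *Sst* lower, *Nppb* and *Penk* higher). Whether genotypes differed is a question for the interaction test. None of the 7 passed it (0% of all genes did), with unadjusted p-values of 0.333 for *Nppb*, the smallest, to 0.887 for *Pdyn*, and 2.11% of all genes had an unadjusted p under 0.05. The direct comparison of KO with WT also gave 0 of 7 in control DRGs (0% of all genes), at day 2 (0.0146%) and at day 5 (0.0109%), and none had an unadjusted p under 0.05 in any of the 3, where 1.7%, 3.86% and 2.34% of all genes did. Of the 5 probes that did not stand for a gene, 1 had such a p, the dim *Tac1* probe A_52_P630806 at day 2 (1.41, unadjusted p = 0.0288 in limma), which was above background in 4 of the 24 samples.

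The intervals show how large a genotype effect could have gone unseen. In control DRGs KO differed from WT by 0.01 for *Tac1* (95% confidence interval -0.43 to 0.45), by 0.09 for *Calca* (-0.18 to 0.37) and by -0.34 for *Sst* (-1.13 to 0.45), the widest apart. At day 2 the difference was 0.35 for *Nppb* (-0.14 to 0.84) and 0.45 for *Penk* (-0.28 to 1.18). At day 5 all 7 differences lay between -0.18 (*Calcb*) and 0.14 (*Pdyn*). Differences of 2-fold in either direction (a log2 difference of 1) lay outside the intervals of all 7 genes at each time point, except those of *Sst* in control DRGs and *Penk* at day 2.

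Within slides that held lesion and control samples of a genotype (4 combinations of slide and genotype at day 5, 5 at day 2), the day 5 difference was negative in 4 of 4 for *Tac1* (-1.26 to -0.88), *Calca* (-1.06 to -0.55), *Calcb* (-1.06 to -0.72) and *Sst* (-1.70 to -0.82). It was also negative in 4 of 4 for 2 genes that did not pass, *Nppb* (-0.39 to -0.17) and *Pdyn* (-0.60 to -0.07), and positive in 3 of 4 for *Penk*. At day 2 it was negative in 5 of 5 for *Tac1* and *Calca* and in 4 of 5 for *Calcb* and *Sst*, where slide 1, with a single KO day 2 sample, differed by 0.08 and 0.22.

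**Figure D4:**
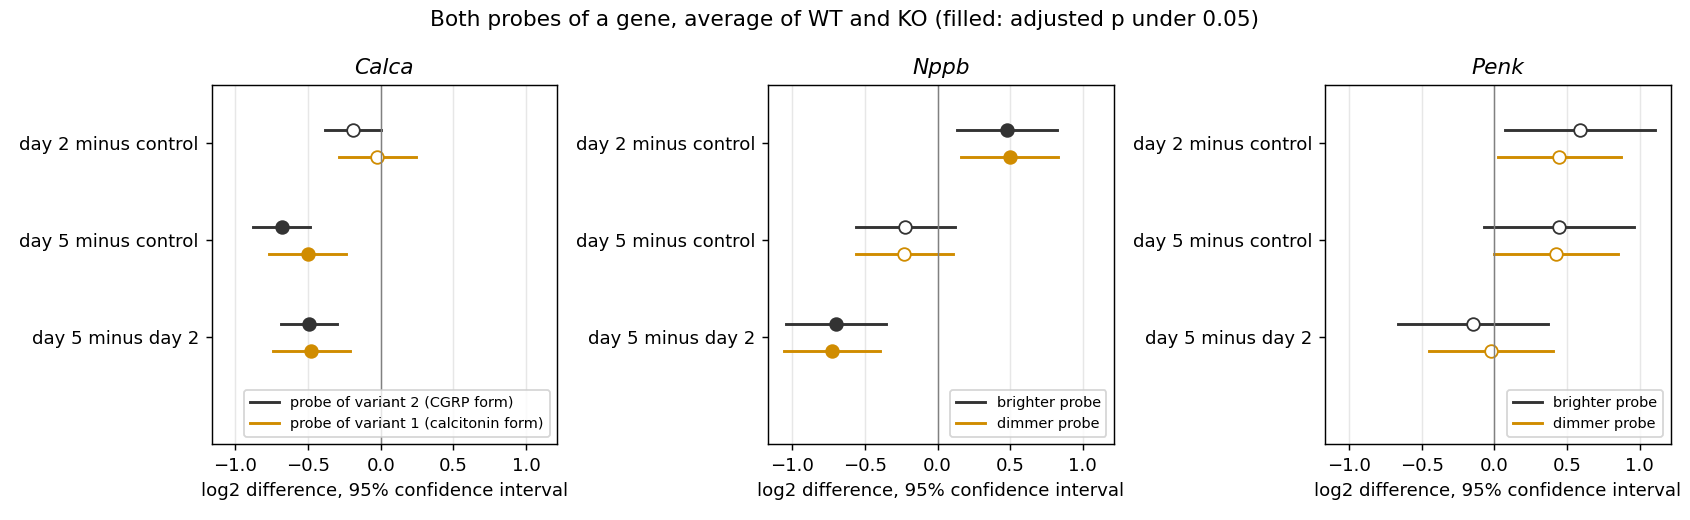
Log2 differences, average of WT and KO, with 95% confidence intervals, for both probes of *Calca*, *Nppb* and *Penk*; filled points have an adjusted p under 0.05. Both *Calca* probes are lower at day 5 (-0.68 and -0.50), both *Nppb* probes are higher at day 2 (0.48 and 0.50), and all points of *Penk* are open.

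Receptors for substance P, CGRP, somatostatin and the opioid peptides are G protein-coupled, and several sit on the same sensory neurons as autoreceptors. Of 20 receptor genes and accessory proteins listed, 19 were on the array. At day 5, 2 were higher and 5 lower (against 10.2% and 13% of all genes), with a median difference of -0.19 (all genes -0.03). At day 2, 1 was higher and 5 were lower (against 9.39% and 12.9% of all genes), among them *Sstr4* (-0.40, adjusted p = 0.0394, a call that remained in 23 of 38 other fits). *Sstr2*, a somatostatin receptor, fell from a mean of 6.87 in control to 5.77 at day 2 and 5.49 at day 5, a difference of -1.38 (adjusted p = 1.98e-06). Of the opioid receptor family, *Oprl1*, the nociceptin receptor, fell by 1.27 at day 2 and 1.12 at day 5 (adjusted p = 2.37e-07) and *Oprm1*, the mu receptor at which buprenorphine also acts, by 0.60 (adjusted p = 0.0299) and 0.86 (adjusted p = 0.00200). The day 2 call of *Oprm1* remained in 28 of 38 other fits and was lost with probes averaged, with a random block for the array, with a block for the slide, and on leaving out any of 7 samples. *Oprk1*, the kappa receptor that dynorphins bind, was well above background in 7 of 8 controls and in 2 of 8 samples at each day post-lesion. Its size of change is therefore uncertain, and the fitted day 5 difference of -1.11 (adjusted p = 0.0155) ran from -1.62 to -0.32 over the 38 other fits.

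The other receptor calls at day 5 were *Npr2* (-0.21, adjusted p = 0.00927), and, higher, *Npr3*, the natriuretic peptide clearance receptor (0.58, adjusted p = 0.00112), and *Ramp3*, a partner of the CGRP receptor family (0.38, adjusted p = 0.0047). The CGRP receptor subunits *Calcrl* (0.03, 95% confidence interval -0.18 to 0.24) and *Ramp1* (0.16, -0.40 to 0.72) did not pass, nor did *Tacr1*, the substance P receptor (0.01, -0.30 to 0.32). *Npr1*, the receptor for B-type natriuretic peptide, and *Tacr3* were not well above background in any sample. Averaging all probes of a gene ended the day 5 calls of *Oprm1*, *Npr2* and *Npr3*.

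Peptide processing genes showed no common direction. Of 18 such genes, 4 were higher and 3 lower at day 5 (against 10.2% and 13% of all genes), with a median of -0.04. At day 2, 4 were higher and 3 lower (against 9.39% and 12.9% of all genes). *Corin*, a protease that cuts natriuretic peptide precursors, was not well above background in any of the 8 controls and was so in 6 of 8 samples at day 2 and 8 of 8 at day 5, at least 1.72-fold and 3.38-fold higher (adjusted p = 7.08e-04 and 1.36e-07) with the background correction used here. Its fitted log2 difference passed in all 38 other fits but ran from 0.21 to 1.49 at day 2 and from 0.56 to 2.84 at day 5, lowest with normexp correction. For this bound each control sample was set to the dimmest level still detected in it, unless its own *Corin* signal was higher. *Qpct*, which closes peptide N-termini, *Pcsk5*, a proprotein convertase, and *Pcsk1*, the prohormone convertase of dense core vesicles, were higher at day 5 by 0.56, 0.42 and 0.21 (adjusted p = 6.42e-05, 0.00309 and 0.0386). Lower were *Cpe*, the carboxypeptidase that trims cut peptides (-0.50, adjusted p = 3.47e-04), *Scg5*, the chaperone of prohormone convertase PCSK2 (-0.48, adjusted p = 4.34e-04), and *Pcsk2* itself (-0.26, adjusted p = 0.0425). The day 5 calls of *Pcsk1* and *Pcsk2* each remained in 25 of 38 other fits, and averaging probes ended that of *Pcsk5*.

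The granins, acidic proteins of the dense core vesicle, were lower throughout. Of 5 listed, 4 were found by name and all 4 passed at both times, with medians of -0.58 at day 2 and -0.68 at day 5. Of all genes, 12.9% and 13% were lower at these times. At day 5 *Chga* was lower by -0.71, *Chgb* by -0.62, *Scg2* by -0.73 and *Scg3* by -0.65. The highest of their adjusted p-values at that time was 0.00311 (*Scg2*). Averaging probes ended both calls of *Chgb*, and the day 2 calls of *Scg2* and *Scg3* remained in 28 and 30 of 38 other fits.

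Several neuropeptides listed because injury is known to induce them moved the opposite way. Since they were listed for that rise, their count says nothing about neuropeptides in general. Of 6 known injury-induced neuropeptides on the array, 4 were higher at day 5 and 0 lower (against 10.2% and 13% of all genes), with a median of 2.91. *Npy* (neuropeptide Y), detected in 6 of 8 controls, rose by 6.85 (adjusted p = 2.3e-07), *Nts* (neurotensin) by 4.64 (adjusted p = 3.29e-15), *Gal* (galanin) by 4.38 (adjusted p = 6.92e-12) and *Adcyap1* (the precursor of PACAP) by 1.43 (adjusted p = 5.15e-11). *Cck* differed by 0.14 and did not pass, and *Vip* was not well above background in any sample. All 4 rising genes had already passed at day 2. Their day 5 differences were positive, while those of *Tac1*, *Calca*, *Calcb* and *Sst* were negative, in the same 24 samples.

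**Figure D5:**
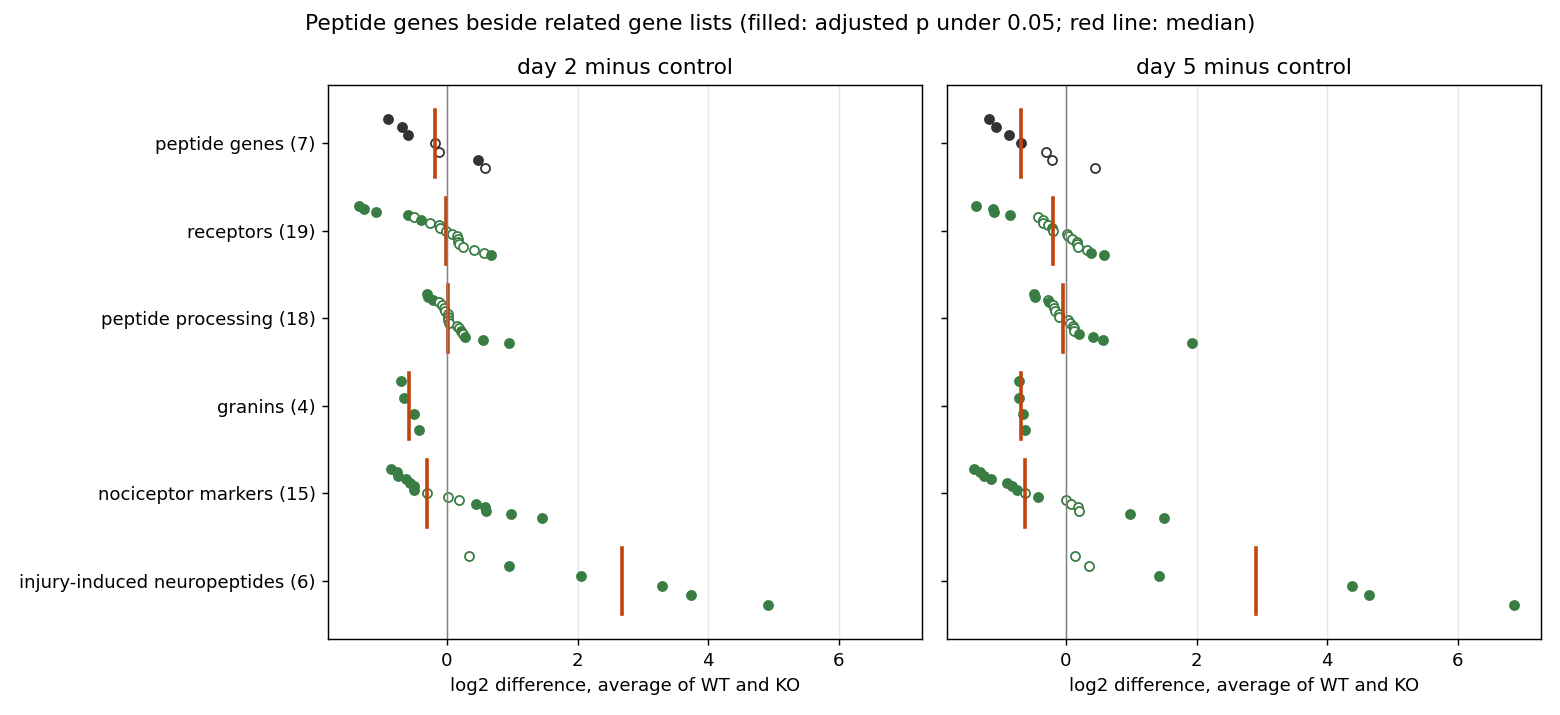
Log2 difference from control, average of WT and KO, at day 2 (left) and day 5 (right) of the 7 peptide genes and of the genes of 5 lists (number of genes in brackets). Each point is a gene, filled where the adjusted p was under 0.05, and the red line is the median. At day 5 the median of the peptide genes is -0.68, that of the granins -0.68 and that of the injury-induced neuropeptides 2.91.

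Markers of nociceptor classes were looked up beside the peptide genes, including a marker of non-peptidergic neurons. In bulk RNA they cannot show what the neurons carrying these peptides did. Of 18 listed, 15 were found by name. At day 2, 7 were lower and 5 higher (against 12.9% and 9.39% of all genes), with a median of -0.30. At day 5, 8 were lower and 2 higher (against 13% and 10.2% of all genes), with a median of -0.62. *Scn11a* and *Scn10a*, the sodium channels of small sensory neurons, were lower by -1.40 and -1.14 (adjusted p = 1.29e-05 and 1.09e-05), *Gfra2*, a GDNF family receptor of non-peptidergic neurons, by -1.31 (adjusted p = 1.76e-05), and *Trpa1*, an irritant-gated channel, by -1.25 (adjusted p = 2.23e-06). *Gfra1* was higher by 1.49 (adjusted p = 1.37e-10).

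*Nppb* and *Sst* mark the same class of itch neurons, which is also known for *Il31ra*, *Osmr*, *Cysltr2* and *Htr1f*. On average *Il31ra* and *Htr1f* were, like *Nppb*, higher at day 2 (0.59, adjusted p = 0.0056, and 0.59, adjusted p = 0.00776) and near control at day 5 (-0.01, adjusted p = 0.988, and 0.19, adjusted p = 0.463). *Osmr* and *Cysltr2* did not share this course, with 0.02 (adjusted p = 0.937) and -0.30 (adjusted p = 0.385) at day 2 and -0.43 (adjusted p = 0.0110) and -0.62 (adjusted p = 0.0506) at day 5. These 4 genes were picked from the list after their values were seen. *Sst* did not share the course of *Nppb* either, with -0.91 at day 2 (adjusted p = 0.0184) and -1.18 at day 5 (adjusted p = 0.00251). The day 2 call of *Nppb* remained in 9 of the 24 fits that each left out 1 sample.

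Cell types of the ganglion moved with the lesion as well. All 10 macrophage markers were higher at day 5 (against 10.2% of all genes), with a median of 1.68. The log2 of their summed intensity ran from 10.83 to 11.60 in WT controls and 10.72 to 11.57 in KO controls, 11.52 to 12.23 and 11.26 to 12.10 at day 2, and 12.87 to 13.14 and 12.60 to 12.996 at day 5. Of 15 pan-neuronal markers, 8 were lower and 3 higher at day 5 (against 13% and 10.2% of all genes), with a median of -0.43. Their log2 summed intensity was 19.23 to 19.46 (WT) and 19.27 to 19.52 (KO) in controls, 19.05 to 19.15 and 18.95 to 19.16 at day 2, and 19.12 to 19.26 and 18.96 to 19.26 at day 5. None of the markers of T cells (6), Schwann cells (6), endothelium (5), muscle (5) or red blood cells (3) passed at day 5. Of 6 satellite glia markers 2 were higher and 1 was lower then, and 1 of 5 fibroblast markers, *Lum*, was higher. Of 6 genes listed for spinal cord 1 was higher, *Gfap*, a glial gene that is not specific to spinal cord. None of these 6 was well above background in all samples. Single libraries stood apart in the log2 summed intensity of the muscle markers, which ran from 7.35 to 13.37 in KO day 5, up to 12.26 in KO day 2 and up to 11.21 in WT control, against 7.06 to 9.07 in the other groups. For red blood cells the sum ran from 14.72 to 17.73 over all samples. The averaged day 5 calls of *Tac1*, *Calca*, *Calcb* and *Sst* remained with each of the 24 samples left out in turn. The part of these shifts in the differences of the peptide genes was not tested.

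The genes most alike to each peptide gene were sought by Pearson's r over the 24 samples among 14554 genes well above background in all of them. The samples share the lesion groups and arrays, so these r values are descriptions. They were highest for *Tac1* (*Id2* 0.95, *Serpina3g* 0.95, *Cpb1* 0.94), *Calcb* (*Grik1* 0.95, *Stt3b* 0.95, *AK047066* 0.95) and *Sst* (*Cntnap4* 0.93, *Mrgpra3* 0.93, *Kntc1* 0.93). *Mrgpra3* encodes an itch receptor of sensory neurons. For *Calca* they were *Kcnmb1* (0.88), *Trpa1* (0.86) and *Cd9* (0.86), and for *Nppb* *Il31ra* (0.85), *Nptx2* (0.85) and *9430021M05Rik* (0.84). The lowest likenesses were those of the opioid precursors, with *C1qtnf4* (0.80), *Gtf3c5* (0.80) and *Tspan4* (0.79) for *Pdyn* and *Pdzk1ip1* (0.71), *Pgd* (0.67) and *Sri* (0.65) for *Penk*.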

How the data were processed

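The deposited files hold Feature Extraction intensities per spot, made by the authors from Agilent 2-color arrays with a separate sample in each channel. Whether a sample held ganglia of 1 mouse or several is not stated. Samples were grouped by the titles, and per the study's methods the 4 replicates of a group were independent. For each channel, mean foreground was corrected with median background (Edwards method), control spots were removed, outlier spots were set to missing (417 probe values), channels were quantile normalized and taken to log2, and spots of a probe were averaged. The brightest probe stood for a gene. limma 3.58.1 (R 4.3.3) fitted 1 mean per group with lmFit and eBayes, and p-values were adjusted over 41174 probes. The number of arrays limits the precision. The fits were tested on simulated data with independent noise in each sample, so that test does not cover the correlation of 0.262 within arrays. No outcome of it is used here. Tables were read with the R package data.table (1.17.8), the array block was fitted with statmod 1.5.0, and figures were drawn with matplotlib 3.10.9.

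The 7 genes and the lists were chosen with earlier results of these data known. Named besides these were *Nfil3*, the 3 most alike genes per member, and, from the receptor, processing, granin, injury peptide and nociceptor lists, up to 5 genes past the threshold at day 5 with a log2 difference of at least 1, and all called genes of lists with 5 or fewer. Genes in addition to these are said to be chosen after their values were seen, or are given as members of a list that did not pass. Probe sequences come from the array files (mm9) and promoters from RefSeq (GRCm38.p6). Coding stretches were found by translating the probe letters, since no protein sequence was used here. Alternatives covered background, foreground, outlier spots, normalization, a filter on dim probes, probe averaging, dye, slide, array, replicate number, an intensity trend and each sample left out.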

Additional observations from a re-analysis of the deposited data

Results flagged for a closer look

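In 2 of the 60 groups of 4 values tested (10 probes in 6 groups), 1 sample lay so far from the other 3 that its gap passed the 95% critical value for such a gap, where chance gives about 3. For *Calcb*, KO day 5 replicate 1 was at 11.72 and the other 3 at 10.97 to 11.09, so it was the sample nearest to the controls. For the dimmer *Penk* probe, WT day 2 replicate 2 was at 6.95 and the other 3 at 7.40 to 7.46.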

How the results depend on the processing

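Of 1078 values under 14 alternatives, 1057 kept their direction and their side of the threshold or stayed uncalled, 7 lost and 14 gained a call, and 0 called values reversed. With each of the 24 samples left out, the numbers were 1804, 28 and 16 of 1848, and 0 reversed. In KO at day 2, where 0 of the 7 genes passed, 2 passed (*Tac1* and *Nppb*) without background correction, with normexp, with the filter on dim probes (29804 probes), with an intensity trend and with the array partner as a covariate, and 1 (*Nppb*) with processed signals, slide as a block or array as a random block. In WT at day 2, where 2 passed, 1 did with probes averaged (*Calcb*) and 1 with the replicate number as a block (*Tac1*). The cause was not tested.

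Leaving out 1 sample gave 0 to 3 genes in WT and 0 to 3 in KO at day 2, 3 to 4 and 3 at day 5, 3 to 5 and 4 to 5 in the averages, and 1 to 2 between the days. The call of *Sst* in WT at day 5 was lost without WT control replicate 4 or WT day 5 replicate 4. KO minus WT and the interaction stayed at 0 in all 38 settings. Replicate numbers gave no common pairing of the samples: over 16 pairs r ran from -0.39 to 0.59, 6 were over 0.1, and 5 samples correlated best with their own number. Between KO control and KO day 5 r ran from 0.04 to 0.33. Dye and slide were not removed from these r values, so they cannot decide whether samples were paired by mouse. Among list genes, 32 of 1722 values lost and 13 gained a call under the alternatives, and 0 reversed. The labels of 1 KO control sample conflict, controls came from operated mice per the study's methods, and dim probes such as those of *Oprk1* limit what can be read from them.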
